A study of Mus musculus with 4 samples.

Results

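The newly assembled long non-coding RNA (lncRNA) transcripts were the rows of the lncRNA table whose identifier starts with MSTRG. They made up 494 of the 30690 transcripts in the table, and the other 30196 carried Ensembl transcript identifiers and are called annotated transcripts here. The samples were N2a cells, a mouse neuroblastoma line that grows as dividing neuron-like cells. The treated group was cultured in medium with 300 µM manganese for 48 h and is called Mn-treated. The other group was N2a cells whose title names no manganese, called untreated. The labels give the manganese treatment text for this library too, so the groups rest on the titles alone. The labels give the strain C57BL/6 for both groups. Each group had 1 total RNA library, from which ribosomal RNA was removed, and these 2 of the 4 libraries of the series are used here. With 1 library per group nothing below has a replicate check, no test between groups could be made, and each ratio compares these libraries rather than the conditions.

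A transcript assembler joins overlapping aligned reads into transcript models. StringTie, which the submitters' processing notes list, gives a model that it does not match to a known transcript an MSTRG identifier, in which the middle number names the locus and the last number the transcript. Long non-coding RNAs are RNAs without a long open reading frame, and many are transcribed at low levels, but the class also holds some of the most abundant nuclear RNAs. An assembled transcript needs reads to enter the catalogue, whereas an annotated one does not, so the detection of the assembled rows is not independent of how they entered the table. The sources used here do not say which libraries fed the assembly. The table pairs neither class with gene symbols, positions or sequences, so the genes, genome positions, exons and sequences of these transcripts were not analysed here.

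The lncRNA columns held 7295110 reads in the Mn-treated and 8042667 in the untreated library, and the mRNA columns 14606979 and 13972452. Among the mRNA genes, 10 of 11 markers of neuroblastoma and neurons had at least 20 reads over both libraries, with summed reads of 43350 in the Mn-treated and 42038 in the untreated library. Hand1, a transcription factor, had 1 read in the Mn-treated and 0 in the untreated library. Marker sums of other cell types were 58 and 50 reads for 4 fibroblast genes, 57 and 66 for 3 astrocyte genes, of which Aqp4 was at 0, and 8 and 3 for 3 immune genes, of which Ptprc and Cd3e were at 0. The 3 oligodendrocyte genes summed to 324 and 203 reads, of which the myelin gene Mbp held 309 and 189. The part of these other-cell markers in the ratios below was not tested.

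Nearly all assembled transcripts were detected in both libraries, whereas most annotated transcripts were detected in neither. With at least 1 read as detection, 478 assembled transcripts (96.8%) were detected in Mn-treated and 474 (96.0%) in untreated cells. Of the 494, 459 (92.9%) had reads in both libraries, 19 in the Mn-treated library alone, 15 in the untreated library alone and 1, MSTRG.4692.1, in neither. Among annotated transcripts 4708 (15.6%) had reads in both libraries and 21797 (72.2%) in neither. The contrast was as wide with a minimum of 5 reads in each library, which 430 assembled (87.0%) and 3077 annotated transcripts (10.2%) reached. The 16 assembled transcripts with 0 reads in Mn-treated cells had a median of 7 reads in untreated cells, and the 20 with 0 reads in untreated cells a median of 5.5 in Mn-treated cells. Detection in 1 library alone was thus mostly a matter of a few reads. A count of 0 allows a share of up to 4.11e-05% of the lncRNA reads in the Mn-treated and 3.73e-05% in the untreated library, from 3 reads over the column total and for counting error only.

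Detected assembled transcripts also had a higher level per length than detected annotated ones. Like their detection, this level is not independent of how they entered the table. Assembly needed reads, whereas an annotated transcript counted as detected with 1 read. The authors' FPKM (reads scaled to transcript length and library size) had a median over detected assembled transcripts of 2.21 in Mn-treated and 1.995 in untreated cells. The medians over detected annotated transcripts were 0.30 and 0.31 FPKM. The middle 50% of assembled transcripts lay between 1.28 and 6.21 FPKM in Mn-treated cells and between 1.18 and 5.67 FPKM in untreated cells. In Mn-treated cells 397 assembled transcripts (83.1% of those detected) exceeded 1 FPKM, 97 exceeded 10 FPKM and 13 exceeded 1000 FPKM. In untreated cells 372 (78.5%), 90 and 8 did so. Among annotated transcripts 1548 (22.7%) and 1451 (23.0%) exceeded 1 FPKM in the Mn-treated and the untreated library. Only 5 annotated transcripts exceeded 1000 FPKM in each library, so that most transcripts at that level carried an assembled identifier although the annotated class was far larger.

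**Figure D1:**
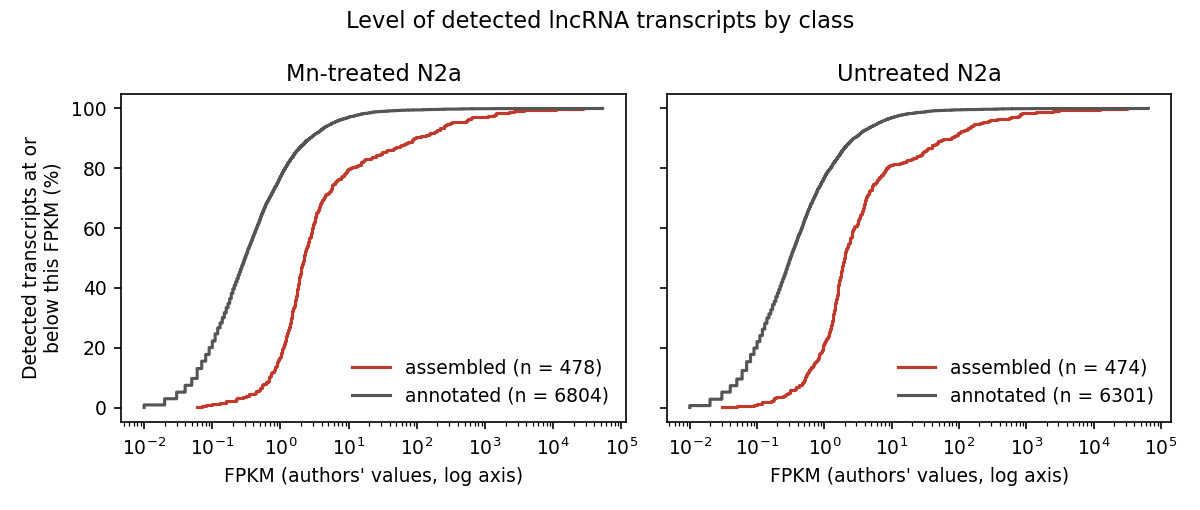
Cumulative share (%) of detected lncRNA transcripts against the authors' FPKM on a log axis, for assembled and annotated transcripts, with Mn-treated cells on the left and untreated cells on the right. The curves of the assembled transcripts lie to the right, with medians of 2.21 and 1.995 FPKM against 0.30 and 0.31 FPKM for annotated transcripts. Assembled transcripts needed reads to enter the table, so this distance is not independent of that. In each library 1 annotated transcript that has reads but is listed at 0 FPKM is not drawn.

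The number of reads behind 1 FPKM is proportional to the transcript length that the authors used. Among transcripts with at least 1 FPKM in Mn-treated cells it had a median of 23.5 reads for 398 assembled and 19.9 reads for 1562 annotated transcripts. The middle 50% ran from 14.3 to 48.1 reads and from 15.2 to 37.4 reads. At this level the lengths of the 2 classes therefore overlapped widely, with a longer upper tail among the assembled transcripts. Annotated transcripts below 1 FPKM, the larger part of that class, are not covered.

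Together the assembled transcripts took a large share of the lncRNA reads. They held 2136797 reads, 29.3% of the column total, in Mn-treated cells and 2153430 reads, 26.8%, in untreated cells, a ratio of the shares of 1.09. Exact binomial 95% intervals of these shares lay within 0.1 percentage points, which is counting error only. In bulk RNA a lower share can stand for fewer cells that express a transcript or for less of it per cell, and these cannot be told apart. The direction of that ratio hung on 1 annotated transcript, ENSMUST00000192833, which had 4368700 reads in Mn-treated and 5180172 in untreated cells. With it left out of the totals, the assembled transcripts made up 73.0% of the reads in Mn-treated and 75.2% in untreated cells, and the ratio turned to 0.971. Against the total of the mRNA table it was 0.949.

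Few transcripts accounted for most of those reads. The 4 most abundant assembled transcripts held 74.8% of the assembled reads in Mn-treated and 83.7% in untreated cells. They were set apart after their values were seen. The other 490 held 538016 reads in Mn-treated and 349939 in untreated cells, or 7.38% and 4.35% of the column totals. Their share was 1.70 times as high in Mn-treated cells, or 1.504 times with ENSMUST00000192833 left out of the totals. The sum over the class was thus carried by 4 transcripts that were nearly level on the column total. With ENSMUST00000192833 left out of the totals, all 4 were lower in the Mn-treated library. The sum over the other 490 was higher in the Mn-treated library on both scales. That sum was itself carried by its most abundant transcripts, since for the 444 left after the 50 with most reads the ratio of shares was 1.295, or 1.149 with ENSMUST00000192833 left out of the totals.

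Of those 4, 3 came from 1 locus. MSTRG.9450.2 had 765994 reads and 10851 FPKM in Mn-treated cells and 819274 reads and 11998 FPKM in untreated cells. MSTRG.9450.3 had 481646 reads in Mn-treated and 602517 in untreated cells, and MSTRG.9450.1 had 139757 and 151008. Summed, the locus held 19.0% of all lncRNA reads in Mn-treated and 19.6% in untreated cells. MSTRG.6631.3 had 211384 and 230692 reads, but at 27449 FPKM in Mn-treated and 30968 FPKM in untreated cells it was the assembled transcript with the highest level per length. The log2 ratio of Mn-treated over untreated, from reads plus 0.5 over the column totals, was 0.04 for MSTRG.9450.2, 0.03 for MSTRG.9450.1, 0.01 for MSTRG.6631.3 and -0.18 for MSTRG.9450.3. With ENSMUST00000192833 left out of the totals these log2 ratios were -0.13, -0.14, -0.16 and -0.35, so 3 of the 4 signs depended on the scale and MSTRG.9450.3 was lower on both.

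The next most abundant assembled transcripts differed more between the libraries. MSTRG.14581.1 had 49697 reads in Mn-treated and 25442 in untreated cells, a log2 ratio of 1.11 with an exact binomial 95% interval of 1.08 to 1.13 that covers counting error only. MSTRG.23017.1 had 45228 and 24981 reads (log2 ratio 1.00), MSTRG.2327.2 had 42228 and 21582 (1.11), and MSTRG.4085.2 had 29137 and 16664 (0.95). All 4 were higher in the Mn-treated library on each scale used, at 0.93, 0.82, 0.94 and 0.77 with ENSMUST00000192833 left out of the totals. MSTRG.391.1 went the other way, with 18822 reads in Mn-treated and 22393 in untreated cells, a log2 ratio of -0.11. MSTRG.16355.2 and MSTRG.16355.3 were listed with the same values to the last decimal, 23515 reads in Mn-treated and 12797 in untreated cells for each (log2 ratio 1.02). They were the only assembled transcripts with at least 20 reads that shared all their values with another row, and 8 annotated transcripts did so. The 2 rows cannot be told apart by their values.

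**Figure D2:**
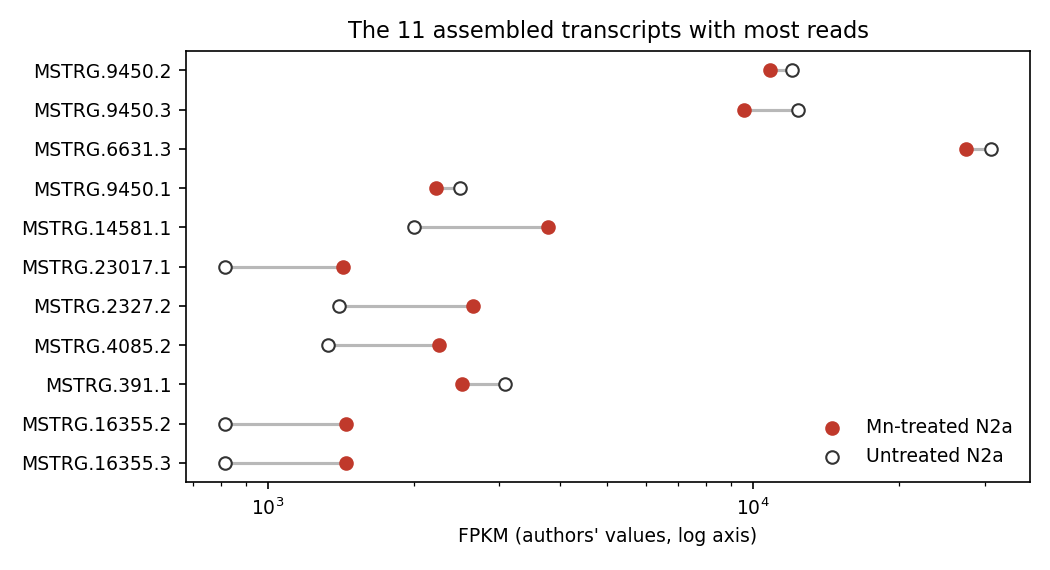
FPKM (authors' values, log axis) of the 11 assembled transcripts with most reads, ordered by reads over both libraries, with filled points for Mn-treated and open points for untreated cells. The 4 transcripts at the top and MSTRG.391.1 are lower in Mn-treated cells on the authors' scale, and the other 6 are higher, among them MSTRG.14581.1 with 3777.59 FPKM in Mn-treated and 1999.22 FPKM in untreated cells.

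Of the 494 assembled transcripts, 444 (89.9%) had at least 20 reads over both libraries and were given a ratio, against 2963 (9.81%) of the annotated ones. The 50 below that minimum get no ratio here except where named. The median log2 ratio was 0.43 over assembled, 0.31 over annotated and 0.33 over all 3407 measured transcripts, so a ratio below is to be read against 0.33 and not against 0. With ENSMUST00000192833 left out of the totals every log2 ratio fell by 0.17, and these medians were 0.26, 0.14 and 0.16.

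By at least 2-fold, 111 assembled transcripts (25%) were higher and 29 (6.53%) lower in the Mn-treated library. Over all measured transcripts 24.8% passed 2-fold upwards and 10.6% downwards. The share of higher transcripts thus lay at that of the whole table. With ENSMUST00000192833 left out of the totals the counts were 73 (16.4%) higher and 32 (7.21%) lower, against 20% and 12.9% of all measured transcripts. On 3 further scales the assembled transcripts split into 61 higher and 40 lower with the median ratio of annotated transcripts (17.5% and 15.2% of all measured), 69 and 36 with the mRNA total (19.3% and 13.6%) and 72 and 37 with the authors' FPKM (20.3% and 14%). On each scale except that of the column total the share of higher transcripts lay below that of the whole table, and on all 5 the share of lower ones did. The 5 scales rest on the same reads, and these shares are not matched for depth. Only 92 of the 444 assembled but 1352 of the 2963 annotated transcripts had 20 to 49 reads, where ratios spread most. The 444 log2 ratios ran from -8.65 to 7.52, both in transcripts with 0 reads in 1 library, and their middle 50% from -0.17 to 1.00. Of the measured assembled transcripts 9 had 0 reads in 1 library, and their bounds against 3 reads lie on the same side of the median, which is therefore 0.43 either way. At or below 0 lay 133 of the 444, or 168 with ENSMUST00000192833 left out of the totals.

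**Figure D3:**
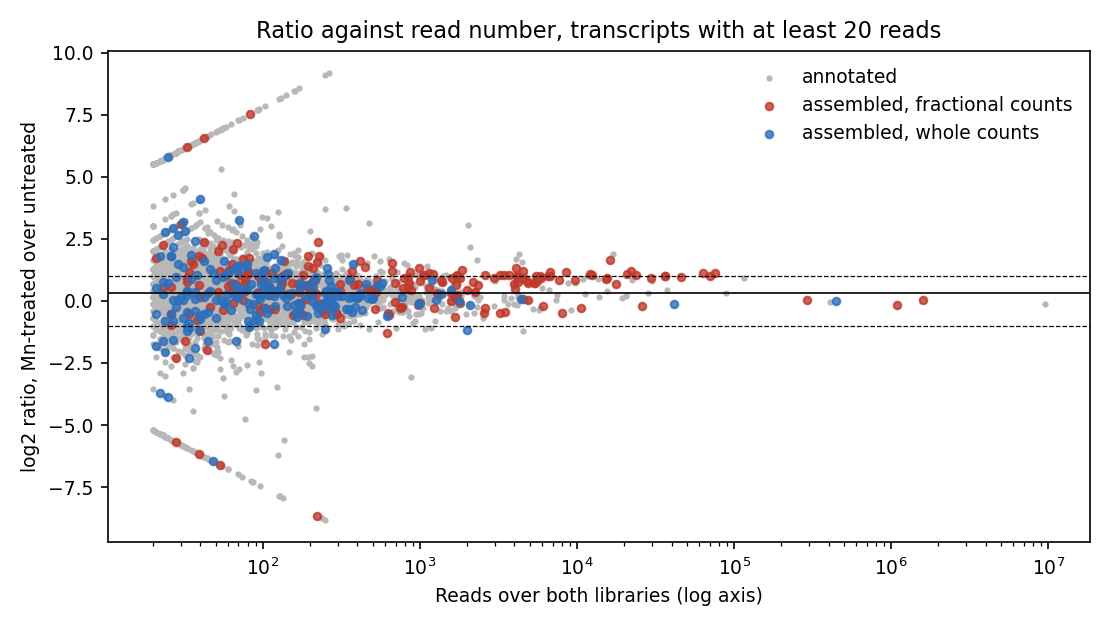
Log2 ratio of Mn-treated over untreated against reads over both libraries (log axis) for transcripts with at least 20 reads, with annotated transcripts in grey and assembled ones coloured by whether their estimated counts were whole or fractional. The solid line is the median of all measured transcripts, 0.33, the dashed lines mark 2-fold, and the slanting rows of points at the top and bottom are transcripts with 0 reads in 1 library, which stand where the added 0.5 reads put them. Above 1000 reads many fractional assembled transcripts lie close to the upper dashed line.

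Ratios of low counts spread more, so the counts were also taken within 4 bands of reads. In the band from 20 to under 50 reads, 30 of 92 assembled transcripts (32.6%) were higher by that measure and 20 (21.7%) lower, against 32.5% and 16.8% of all transcripts in the band. In the band from 50 to under 200 reads, 41 of 154 (26.6%) were higher and 5 (3.25%) lower, against 22.5% and 8%. In the band from 200 to under 1000 reads, 14 of 105 (13.3%) were higher and 3 (2.86%) lower, against 11.7% and 3.11%. Up to this level the shares of higher transcripts lay near those of the whole table. The share of lower ones was above that of all transcripts in the first of these bands, below it in the next and near it in the last.

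With at least 1000 reads, 26 of 93 assembled transcripts (28.0%) were higher by 2-fold or more and 1 (1.08%) lower, against 17.5% and 1.89% of all transcripts with as many reads. Of the 119 annotated transcripts in this band 11 (9.24%) were higher and 3 (2.52%) lower. The median log2 ratio was 0.80 for the assembled and 0.28 for the annotated transcripts. The count of 26 hung on the scale, since many ratios stood just at the threshold. With ENSMUST00000192833 left out of the totals 5 assembled transcripts of this band were at least 2-fold higher, beside 8 annotated ones, or 5.38% and 6.72%, against 6.13% of all transcripts in the band. The medians were then 0.62 and 0.11. The medians kept their distance because a change of scale moves every ratio alike.

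The assembled transcripts with at least 1000 reads were divided into adjoining ranges of the log2 ratio, with limits set after their values were seen. Of the 93, 50 had log2 ratios from 0.70 to under 1.2 and fractional counts, and they came from 47 loci. Together they held 390308 reads in Mn-treated and 214527 in untreated cells, and their median level was 202 FPKM in Mn-treated and 125 FPKM in untreated cells. Their median of 15.2 reads behind 1 FPKM lay below the class median of 23.5, but within the middle 50% of the class. A further 12 fractional and 6 whole-count transcripts lay between -0.25 and 0.25, with medians of 77.8 and 145 reads behind 1 FPKM. Between these ranges, from 0.25 to under 0.70, lay 9 fractional and 2 whole-count transcripts, so the ranges are not set apart by a gap. Below -0.25 lay 8 fractional and 1 whole-count transcript, at 1.2 or above lay 4 fractional ones, and the remaining whole-count transcript lay from 0.70 to under 1.2. Among annotated transcripts with at least 1000 reads 24 of 110 with fractional counts lay in the range from 0.70 to under 1.2, with a median of 44.7 reads behind 1 FPKM. The fractional count and the ratio of the 50 were set by how they were chosen, whereas their length was not. Fractional counts were common in this band, in 83 of the 93 assembled and 110 of the 119 annotated transcripts. MSTRG.10628.5, chosen after its values were seen, had the highest ratio in the band, with 11994 reads in Mn-treated and 4206 in untreated cells and a log2 ratio of 1.65.

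**Figure D4:**
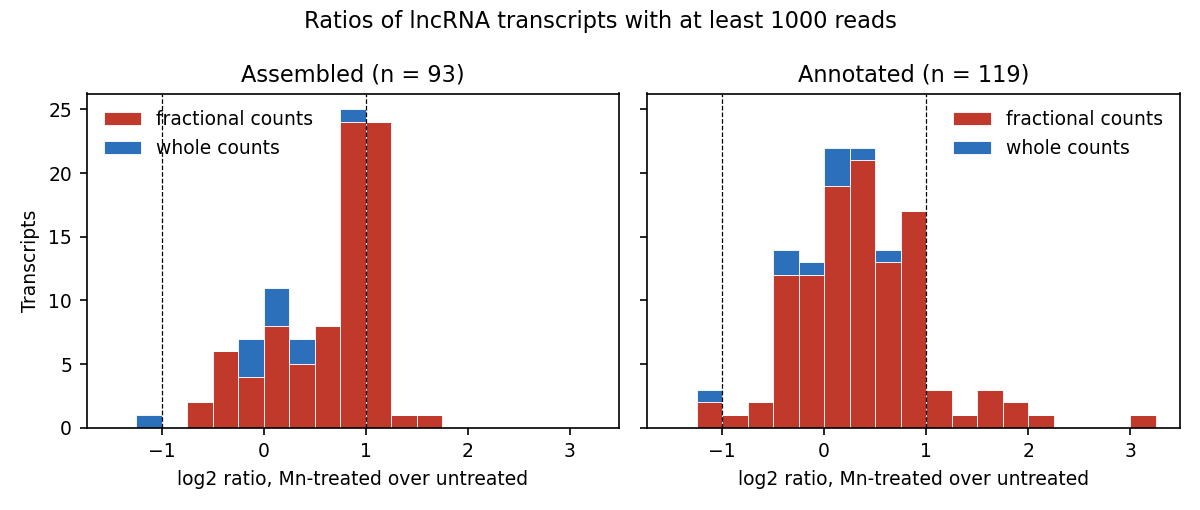
Number of transcripts by log2 ratio of Mn-treated over untreated in steps of 0.25, for 93 assembled (left) and 119 annotated transcripts (right) with at least 1000 reads, stacked by fractional and whole counts, with dashed lines at 2-fold. The assembled transcripts pile up around 1, where 50 of 93 have fractional counts and ratios from 0.70 to under 1.2, while the annotated transcripts centre on a median of 0.28.

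Whether a count was whole or fractional went with the ratio among the assembled transcripts. A count was called whole when it lay within 0.005 of a whole number in both libraries. Of the 444 measured assembled transcripts 228 (51.4%) had a fractional count, against 80.1% of the measured annotated ones. The median log2 ratio was 0.71 for the 228 with fractional counts and 0.21 for the 216 with whole counts. Among measured annotated transcripts these medians were 0.30 and 0.37. Of the 228, 70 were at least 2-fold higher and 10 lower, against 25.7% and 11.8% of all measured transcripts with fractional counts. Of the 216, 41 were higher and 19 lower, against 21.9% and 6.71% of all measured transcripts with whole counts. Within the 10 whole-count transcripts with at least 1000 reads the median was 0.02, 0 were at least 2-fold higher, and MSTRG.10760.1 was lower, with 573 reads in Mn-treated and 1414 in untreated cells (log2 ratio -1.16). The 9 annotated whole-count transcripts in this band were alike, with a median of 0.05, 0 higher and 1 lower. The 83 assembled and 110 annotated transcripts with fractional counts in this band had medians of 0.86 and 0.31. Counting programs give fractional estimates where reads fit several transcripts, so these values are uncertain and may not be independent of each other, and the part of shared reads in the ratios was not tested.

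Where the library with more reads held at least 100 of them, the 2 highest and the 2 lowest ratios of assembled transcripts all belonged to ones with fractional counts. MSTRG.10945.4 had 185 reads in Mn-treated and 39 in untreated cells, a log2 ratio of 2.37 with an interval of 1.88 to 2.92. MSTRG.10945.5, of the same locus, had 125 and 81 reads, which is 0.76 on the log2 scale. MSTRG.12740.2 had 149 reads in Mn-treated and 46 in untreated cells, a log2 ratio of 1.83 with an interval of 1.35 to 2.35. Each assembled transcript listed for these loci was thus higher in the Mn-treated library, and other transcripts of the loci are not covered.

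At the other end, MSTRG.20341.2 had 0 reads in Mn-treated and 221 in untreated cells, a level at least 66.8-fold lower when 3 reads are taken as the floor of the Mn-treated library and the 221 reads as they stand. With counting error in both libraries, the exact binomial interval allows a ratio of up to 0.0186, which is 53.9-fold lower. In the authors' deposited table its log2 fold change is -14.78, since an FPKM of 0 was replaced by 0.001 there. MSTRG.7037.2 had 166 reads in Mn-treated and 449 in untreated cells, a log2 ratio of -1.29 with an interval of -1.56 to -1.03. MSTRG.7037.1, of the same locus, had 846 and 838 reads, which is 0.15 on the log2 scale, or -0.02 with ENSMUST00000192833 left out of the totals. The locus sum was 1012 reads in Mn-treated and 1287 in untreated cells, a log2 ratio of -0.21 with an interval of -0.33 to -0.09.

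The 494 transcripts came from 440 loci, of which 398 held 1 assembled transcript in the table, 36 held 2 and 6 held more. A locus here is the set of assembled rows that share the middle number. Annotated transcripts at the same place could not be recognised, so a locus sum may cover only a part of its locus. In 105 loci the transcript numbered 1 was not among the rows, and the highest transcript number was 34. In 37 loci at least 2 transcripts had 20 or more reads, 83 transcripts in all. In 12 of the 37 these transcripts differed in sign on the column total, and in 21 the counting intervals of the highest and the lowest transcript did not overlap. The signs are set against 0 and hang on the scale, whereas the overlap of intervals does not. The intervals take each estimate as an independent count and do not cover how shared reads were divided among the transcripts of a locus. Where more than 2 transcripts were measured, the pair was also picked by its values. The median distance between the highest and the lowest log2 ratio within a locus was 0.98. Of the 83 transcripts 26 were higher and 6 lower by 2-fold or more (24.8% and 10.6% of all measured transcripts). Of the 37 locus sums 8 (21.6%) were higher and 0 lower. Over all assembled loci, 92 of the 398 sums with at least 20 reads were higher and 23 lower. The sums of the 37 loci ran from -0.58 to 1.65. Of the 83 transcripts 3 had 0 reads in 1 library, and the others ran from -1.96 to 2.38. Sums hold more reads than the transcripts in them, so their ranges cannot be set against each other.

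MSTRG.7754 had the most measured transcripts, 6. Its transcripts ranged from MSTRG.7754.3, with 613 reads in Mn-treated and 1050 in untreated cells (log2 ratio -0.64), to MSTRG.7754.5, with 1205 and 1046 reads (0.34). The most abundant, MSTRG.7754.6, had 4539 and 6120 reads (-0.29). The sum of the locus was 10830 reads in Mn-treated and 13473 in untreated cells, a log2 ratio of -0.17.

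MSTRG.7383.7 had 33 reads in Mn-treated and 0 in untreated cells, which is at least 12.1-fold higher when the untreated library is set to a floor of 3 reads and the 33 reads are taken as they stand. With counting error in both libraries, the exact binomial interval reaches down to a ratio of 9.32. MSTRG.7383.6 had 8 reads in Mn-treated and 36 in untreated cells, a log2 ratio of -1.96 with an interval of -3.35 to -0.90. MSTRG.7383.5 had 16 and 3 reads, a ratio of 5.88 with an interval of 1.68 to 31.5, and fell short of the minimum of 20. MSTRG.7383.3 had 13 and 25 reads and MSTRG.7383.4 had 30 and 35. All counts of the locus were fractional estimates, and its sum of 100 reads in Mn-treated and 99 in untreated cells gave a log2 ratio of 0.16 with an interval of -0.26 to 0.57. The distance between MSTRG.7383.7 and MSTRG.7383.6 was at least 5.56 on the log2 scale with MSTRG.7383.7 at its floor of 3 reads, and counting error is not included in that value.

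A further 3 loci had 3 measured transcripts each. MSTRG.9450, the one of them with most reads, had a distance of 0.23 between its highest and lowest transcript, at the highest depth of the class. The other two, MSTRG.12918 and MSTRG.11800, named after their values were seen, had distances of 2.04 and 2.37, and the intervals of their highest and lowest transcripts did not overlap. The sum of MSTRG.9450 had a log2 ratio of -0.04 on 2960196 reads, with a counting interval no wider than the last digit.

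**Figure D5:**
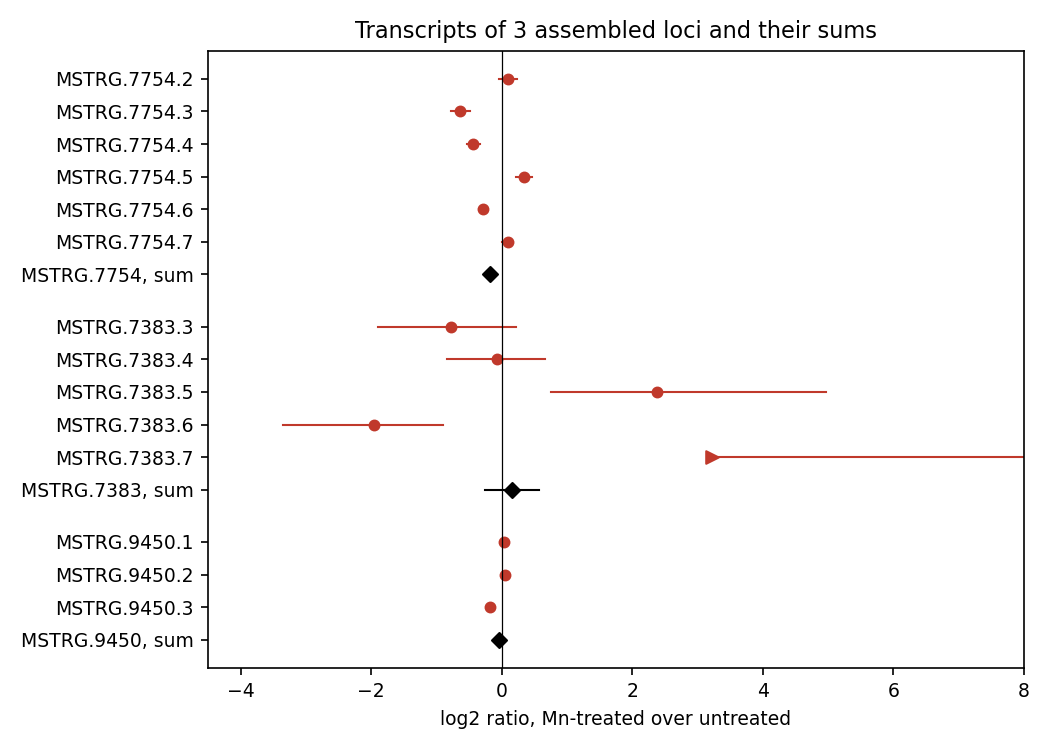
Log2 ratio of Mn-treated over untreated for the assembled transcripts of 3 loci (points) and for the sum of each locus (diamonds), with exact binomial 95% intervals that cover counting error only. The triangle for MSTRG.7383.7 marks the lower end of its interval, which has no upper end because the untreated library had 0 reads. The sums lie between -0.17 and 0.16, while the transcripts of MSTRG.7383 spread on both sides of 0.

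At a false discovery rate under 0.05 the authors' deposited table called 251 assembled transcripts, of which 52 were lower and the rest higher in Mn-treated cells. At that rate the authors' deposited table called 4.38% of all its rows higher and 1.87% lower, but most of its annotated rows had no reads and could not be called. Of the 111 assembled transcripts at least 2-fold higher by reads, 107 were called in the authors' deposited table, as were 22 of the 29 at least 2-fold lower and 111 of those within 2-fold. That test also compared 1 library with 1 library, so its calls carry no replicate error. These were the same 2 libraries as in the ratios, so the calls are not independent of them. The share called among all measured transcripts past 2-fold was not counted. For 37 measured assembled transcripts the fold change in the authors' deposited table and the ratio of reads over column totals had opposite signs. With ENSMUST00000192833 left out of the totals, 4 did.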

How the data were processed

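Per the labels, total RNA of N2a cells was depleted of ribosomal RNA and sequenced on an Illumina instrument. The submitters' processing notes list fastp 0.18.0, Bowtie2, StringTie and mm9, with no role or order; the sources used here name neither counting program nor annotation. The authors deposited estimated counts, which were rounded to whole reads here, and FPKM values for each transcript. The authors' deposited log2 fold change is a ratio of FPKM values with 0 replaced by 0.001, and its p-value and false discovery rate, deposited beside it, come from a test that no header names. The FPKM scale shifted log2 ratios by -0.19 relative to column totals. Columns were assigned by the condition in their name, and 0 were left without a library.

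The ratio of (reads + 0.5) over the column total was computed for transcripts with at least 20 reads over both libraries, with exact conditional binomial (Clopper-Pearson) 95% intervals, in python 3.11.15 with scipy 1.17.1. Without molecular identifiers PCR copies are counted too, and both the intervals and the floors (3 reads per library) cover counting error only. The ratio step was tested on simulated reads drawn by the same binomial model that its intervals assume. Variation between libraries and shared reads were not simulated, so that test says nothing about either. No test across samples was made, since each group had 1 library. The assembled transcripts named by rule are the 10 with most reads (11 with a tie). The rule also names the 2 highest and the 2 lowest ratios where either library held at least 100 reads. The 3 loci named by rule are those with most measured transcripts, with ties settled by reads. All other assembled transcripts and loci were named after their values were seen, also where the text does not say so. The members and lists were chosen with earlier results of these data known. Marker genes were looked up by symbol in the mRNA table. The value of 1 marker gene is not reported here.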

Additional observations from a re-analysis of the deposited data

How the results depend on the processing

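Settings were changed 1 at a time except where 2 are named together. The 111 higher assembled transcripts became 73 with the most abundant transcript left out of the total, 61 with the median ratio of annotated transcripts as the scale (17.5% of all measured), 69 with the mRNA total (19.3%) and 72 with the authors' FPKM (20.3%). On those scales the median log2 ratio of 0.43 became 0.26, 0.12, 0.23 and 0.25, and the 29 lower ones became 32, 40, 36 and 37. The ratio of shares, 1.09, reversed to 0.971 without the most abundant transcript in the total and to 0.949 with the mRNA total; it was 1.13 without the most abundant assembled transcript. Without the 4 most abundant it was 1.70, and 1.504 with both these 4 and the most abundant transcript of the table left out; these 2, the split by fractional counts and the scales in the band of at least 1000 reads were chosen after seeing the data. In that band 26 higher transcripts (28.0%, against 17.5% of all in the band) became 5, 2, 4 and 4 (5.38%, 2.15%, 4.30% and 4.30%, against 6.13%, 4.72%, 5.66% and 5.66%). The excess of this count over the band was thus present with the column total alone. The median of the assembled transcripts lay above that of all in the band on every scale. It was 0.80 against 0.44 with the column total and 0.48 against 0.12 with the median ratio of annotated transcripts. Whole counts alone gave 41 higher, 19 lower and a median of 0.21; fractional counts alone gave 70, 10 and 0.71. At 1.5-fold 197 were higher and 46 lower, against 39.9% and 17.3% of all measured. The lower count was 9 with a minimum of 50 reads (6.06% of all) and 45 with a minimum of 1 (24.8%). A prior count of 2, a minimum of 10 reads and sums per locus kept both counts within 1.5 times and the median within 0.1. Detection and median FPKM stayed within 1.5 times under every alternative run for them. The cause of these differences was not tested beyond what each setting changes by construction. No paired analysis was possible because each group had 1 library, and for the same reason no library could be left out. Depth limits transcripts below 50 reads most.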
